A study of Mus musculus with 6 samples.

Results

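The class III POU factors were examined in cultured mouse neural stem cells that lack the DNA methyltransferase Dnmt3a. The family has 4 genes, Pou3f1, Pou3f2, Pou3f3 and Pou3f4. They were taken as every non-control spot whose gene name, or whose accession, belongs to one of them, which gave 6 probes for 4 of the 28786 gene names on the arrays. All 4 genes were among the 18062 tested, meaning that the brightest probe rose well above its local background, in either dye, on 2 or more of the 6 arrays. The family was selected on measured values, namely the higher Pou3f1 signal in Dnmt3a-null cells, so the ratios of Dnmt3a-null to wild-type signal of its members are given below as a description with no test.

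Cells came from the walls of the lateral ventricles of mice aged postnatal day 14 to 21 and were grown with FGF-2 and EGF at 10 ng/ml each. Dnmt3a-null (KO) cells and wild-type (WT) cells were compared, and the sources used here do not say how the Dnmt3a allele was made null. On 2 arrays the cells were differentiating: they had been replated with mitogens for 2 days and then kept without them for 3 days. On 4 arrays they were proliferating. Every array carried KO RNA in one dye and WT RNA in the other, with KO RNA in Cy5 on differentiating replicate 2 and on proliferating replicates 1 and 3, and in Cy3 on the other arrays. The differentiating arrays shared 1 slide and the proliferating arrays another, so slide and condition cannot be told apart, whereas KO and WT were compared within each array. The labels call the arrays biological replicates without giving the animals behind them, and the number of arrays limits the precision.

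Class III POU factors bind the octamer motif and related DNA sequences through a POU-specific domain and a POU homeodomain, and often do so beside a SOX protein. Pou3f1 (also called Oct-6 or SCIP) is known for timing the step from promyelinating to myelinating Schwann cells and for its presence in oligodendrocyte precursors. Pou3f2 (Brn2) and Pou3f3 (Brn1) act together in neural precursors and upper-layer cortical neurons, Pou3f2 is one of the factors used to turn fibroblasts into neurons, and Pou3f4 (Brn4), which is X-linked, is needed in the inner ear. A well-known target of the neural members with Sox2 is the enhancer of Nes, the gene of the intermediate filament nestin.

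The labels were checked first. Dnmt3a was lower in KO cells on all 6 arrays, with a mean log2 ratio of KO over WT of -1.38 ± 0.143 in differentiating cells (SD, n = 2) and -0.96 ± 0.217 in proliferating cells (SD, n = 4) at its brightest probe. The sources used here do not say which of the 3 Dnmt3a probes the null allele affects. Nes and Sox2, which mark neural stem cells, were well above background in every channel. The share of gene spots well above background ranged from 52.3% to 59.1% over the channels. On proliferating replicates 3 and 4 the KO and WT channels differed in the sex-linked transcripts Xist and Ddx3y, which matters for the X-linked Pou3f4. At its brightest probe Xist had log2 intensities of 11.27 and 11.06 in KO and 12.69 and 13.34 in WT cells there. On every other array it was at most 6.08. Xist thus also differed between arrays and between conditions, and the withdrawal comparisons carry that difference. Of the proliferating arrays, replicates 3 and 4 are also those on which Pou3f1 was highest and lowest.

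Pou3f1 was higher in KO than in WT cells on every array, and it was the only one of the 4 genes for which this held. Its single probe (A_51_P511270, chromosome 4, 124103741 to 124103800, build mm7) was well above background in all 12 channels and saturated in none. Normalized log2 intensities in differentiating cells were 11.12 and 12.4 in KO, against 9.88 and 10.09 in WT, and these ranges did not overlap. In proliferating KO cells they were 12.45, 13.03, 14.39 and 11.44 on replicates 1 to 4, against 10.13, 10.82, 12.05 and 9.33 in the WT cells on the same arrays. Here the ranges overlapped across arrays, since the highest WT value lay above the lowest KO value, but within each array KO was the higher channel. RNA of a whole culture was measured, so fewer cells of a type and less RNA per cell cannot be told apart here or in any later result.

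**Figure D1:**
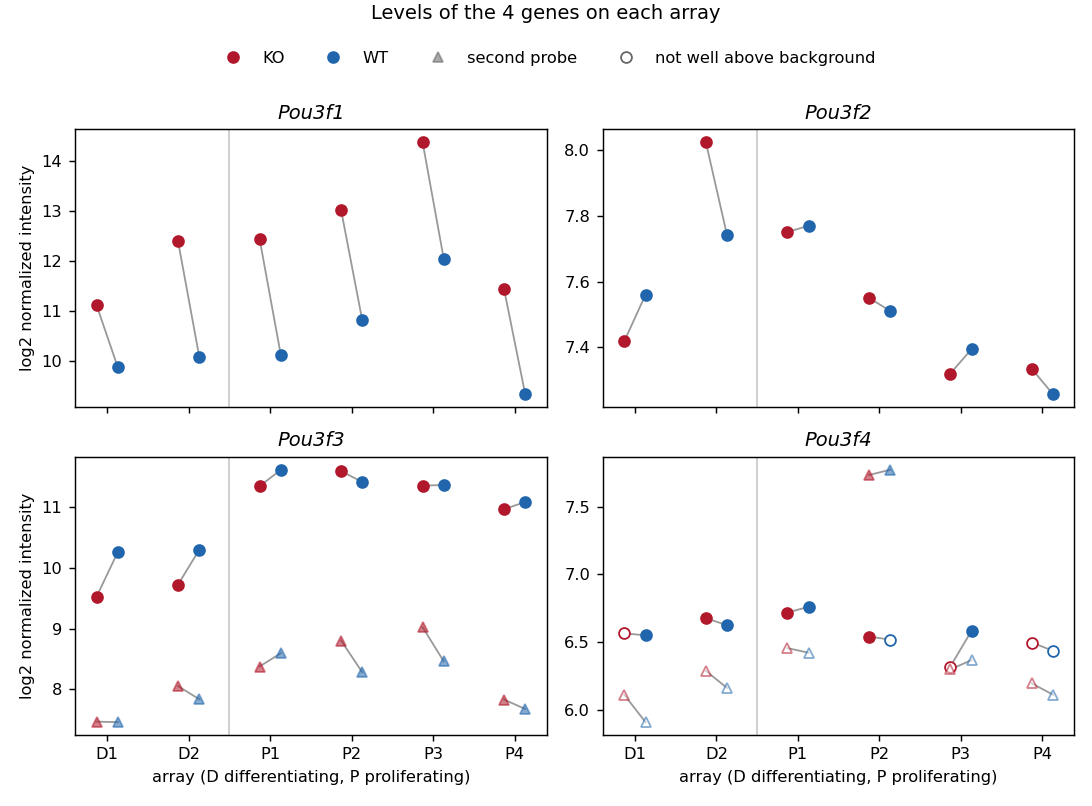
Normalized log2 intensity (vertical axes) of Pou3f1, Pou3f2, Pou3f3 and Pou3f4 in the KO and WT channels of each array, with differentiating replicates D1 and D2 left of proliferating replicates P1 to P4. Lines join the 2 channels of an array, triangles are second probes and open symbols are values not well above background; Pou3f1 is higher in KO on all 6 arrays, and the brighter Pou3f3 probe is lower on both differentiating arrays than on the 4 proliferating ones.

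The log2 ratio of KO over WT for Pou3f1 was 1.24 and 2.31 on the 2 differentiating arrays, a mean of 1.78 ± 0.756 (SD, n = 2), which is 3.42-fold. On the proliferating arrays it was 2.32, 2.21, 2.34 and 2.11, a mean of 2.25 ± 0.106 (SD, n = 4), which is 4.74-fold. Differentiating replicate 2 thus gave a ratio within the range of the proliferating arrays, and differentiating replicate 1, on which KO RNA carried Cy3, gave the lowest of the 6. Ranked by mean ratio among 18062 genes, Pou3f1 stood 126th in differentiating cells and 18th in proliferating cells. It was the 1 of 4 members past an adjusted p of 0.05 in differentiating cells, where 3.08% of all tested genes passed, and the 1 of 4 in proliferating cells, where 0.952% passed. Nothing is read from these counts, because the ratio was what chose the family. Without either of the differentiating arrays no gene passed in either condition, and this holds for the KO over WT calls of the gene lists below too.

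The level of Pou3f1 varied widely between proliferating arrays while its ratio hardly moved. The 4 proliferating KO channels spanned 7.73-fold and the 4 WT channels 6.58-fold, and replicate 3 was highest and replicate 4 lowest in both genotypes. The SD of the log2 level was 1.23 in KO and 1.15 in WT cells, larger than in 99.1% and 98.5% of the tested genes, whose median SDs were 0.244 and 0.252. The SD of the log2 ratio was 0.106, against a median of 0.228 over the tested genes, and only 15.6% of them had a smaller one. Both channels of an array share its hybridisation, so this near-constant ratio describes paired channels of 4 arrays. The probe has 1 spot per array, so differences in level between cultures and between hybridisations cannot be told apart.

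**Figure D2:**
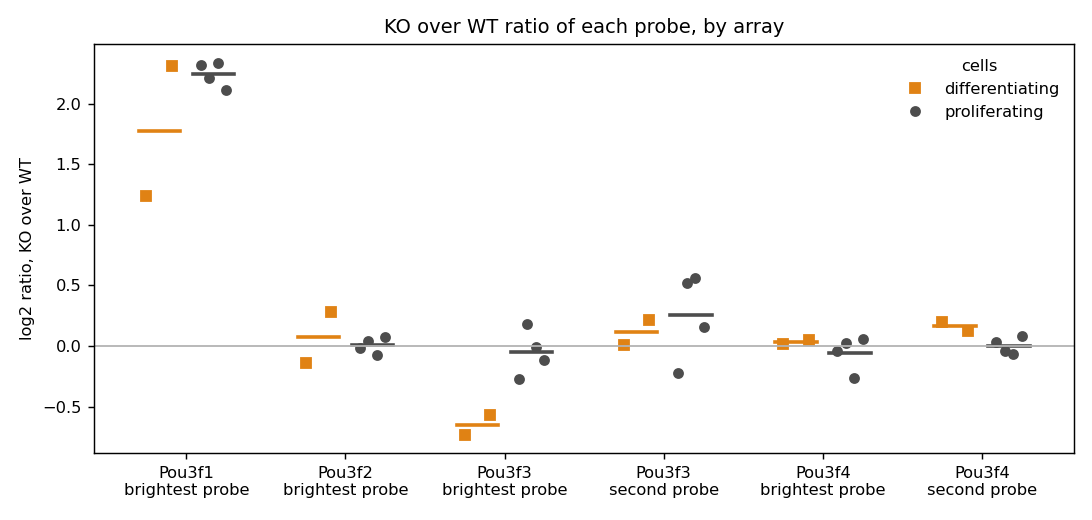
Log2 ratio of KO over WT (vertical axis) for each of the 6 probes, with squares for the 2 differentiating arrays, circles for the 4 proliferating arrays and bars at their means. Pou3f1 lies between 1.24 and 2.34, the brighter Pou3f3 probe lies at -0.73 and -0.57 in differentiating cells, and the other points lie nearer to 0.

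Ordered by mean level, Pou3f1 stood at 12.83 ± 1.23 in proliferating KO cells, 11.76 ± 0.904 in differentiating KO cells, 10.58 ± 1.15 in proliferating WT cells and 9.98 ± 0.148 in differentiating WT cells (log2 intensity, SD, n = 4 or 2). Each pair of neighbours in that order had overlapping ranges. The change with mitogen withdrawal, differentiating minus proliferating, was -1.07 (SE 0.67, adjusted p = 0.295) in KO cells and -0.60 (SE 0.67, adjusted p = 0.58) in WT cells, so neither passed the limma test. The KO effect in differentiating minus that in proliferating cells was -0.47 (SE 0.218, adjusted p = 0.48), which did not pass either. Leaving out single arrays moved these values to between -1.67 (without differentiating replicate 2) and -0.47 (without differentiating replicate 1) in KO cells, and to between -1.06 (without proliferating replicate 4) and -0.06 (without proliferating replicate 3) in WT cells. The difference of the KO effects moved to between -0.92 (without differentiating replicate 2) and -0.02 (without differentiating replicate 1), and no value passed in any of these fits. Given the spread between arrays, a change of Pou3f1 with withdrawal was not detectable with these 6 arrays.

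Pou3f2, the Brn2 gene, showed no shift between KO and WT cells larger than the spread between arrays. Its probe (A_51_P487010, chromosome 4, 22490541 to 22490600, build mm7) was well above background in all channels. Log2 intensities in differentiating cells were 7.42 and 8.02 in KO, against 7.56 and 7.74 in WT, and in proliferating cells 7.75, 7.55, 7.32 and 7.33 in KO, against 7.77, 7.51, 7.39 and 7.26 in WT. The KO and WT values interleaved in both conditions. The mean log2 ratio was 0.07 ± 0.299 in differentiating cells (SD, n = 2) and 0.0058 ± 0.0664 in proliferating cells (SD, n = 4), positive on 3 of 6 arrays. With withdrawal Pou3f2 shifted by 0.23 (SE 0.215, adjusted p = 0.486) in KO cells and by 0.17 (SE 0.215, adjusted p = 0.637) in WT cells, and the difference of the KO effects was 0.06 (SE 0.152, adjusted p = 0.925). None of these passed.

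Pou3f3, the Brn1 gene, fell with mitogen withdrawal in both genotypes at its brighter probe, the only member to pass in either. At this probe (A_52_P1008476, chromosome 1, 42939639 to 42939698, build mm7) KO cells had log2 intensities of 9.53 and 9.73 while differentiating, against 11.35, 11.6, 11.36 and 10.97 while proliferating. WT cells had 10.26 and 10.3 while differentiating, against 11.62, 11.42, 11.37 and 11.09 while proliferating. In each genotype both differentiating values lay below all 4 proliferating values, and while differentiating both KO values lay below both WT values.

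The fall was -1.70 on the log2 scale in KO cells (SE 0.213, adjusted p = 0.00225), or 3.24-fold, and -1.10 in WT cells (SE 0.213, adjusted p = 0.0109), or 2.14-fold. It was the 1 member of 4 called in each genotype, where 15.2% of all genes passed in KO cells and 14.9% in WT cells, 6.09% and 5.89% of them downwards. Pou3f3 was thus 1 of 1100 genes called as falling in KO cells and 1 of 1063 in WT cells, and the 2 slides differ with the condition. In KO cells the call ended without differentiating replicate 1 (adjusted p = 0.0549). In WT cells it ended without differentiating replicate 1 (adjusted p = 0.113), differentiating replicate 2 (adjusted p = 0.0911), proliferating replicate 1 (adjusted p = 0.0635) or proliferating replicate 3 (adjusted p = 0.0514), with the mean of both probes (-0.84, adjusted p = 0.0707), and without proliferating replicates 3 and 4 together (-1.24, adjusted p = 0.111). Across these single omissions the size stayed between -1.84 and -1.55 in KO cells and between -1.18 and -1.01 in WT cells.

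The second Pou3f3 probe (A_51_P462657, chromosome 1, 42938630 to 42938689, build mm7) gave a smaller change. It read 7.46 and 8.05 in differentiating KO cells, against 8.37, 8.8, 9.02 and 7.83 in proliferating KO cells, and 7.45 and 7.83 in differentiating WT cells, against 8.59, 8.28, 8.46 and 7.67 in proliferating WT cells. Here the 2 conditions overlapped in both genotypes. The change was -0.75 in KO cells (adjusted p = 0.193) and -0.61 in WT cells (adjusted p = 0.295), of the same sign as at the brighter probe but past the threshold in neither. This probe was set in place of the brighter one after the data had been seen.

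**Figure D3:**
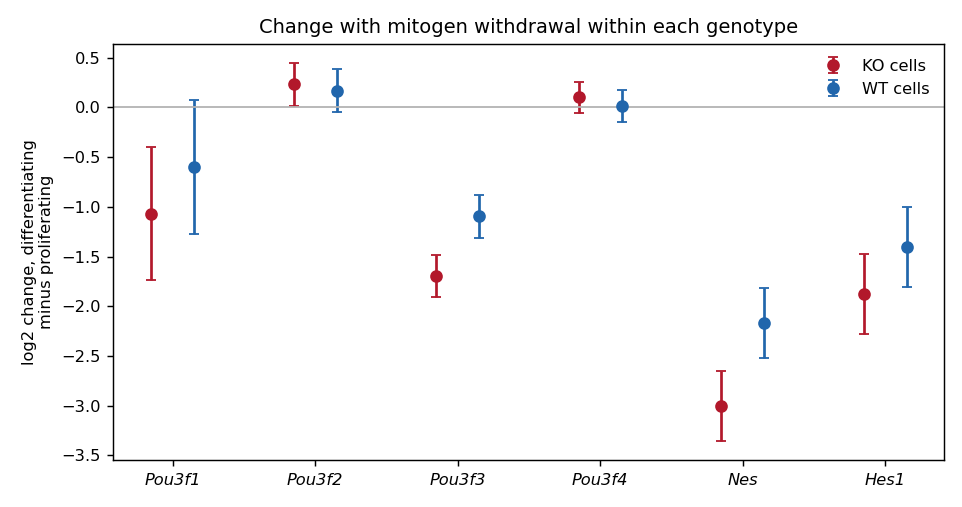
Log2 change with mitogen withdrawal (differentiating minus proliferating, vertical axis) in KO and WT cells for the brightest probe of each member and for Nes and Hes1, with bars of 1 SE from the separate-channel fit. Pou3f3, Nes and Hes1 lie below 0 in both genotypes, while Pou3f2 and Pou3f4 lie within about 1 SE of 0.

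The ratio of KO over WT for the brighter Pou3f3 probe was -0.73 and -0.57 on the differentiating arrays, a mean of -0.65 ± 0.115 (SD, n = 2), or 1.57-fold lower in KO. On the proliferating arrays it was -0.27, 0.19, -0.01 and -0.11, a mean of -0.05 ± 0.192 (SD, n = 4). The KO effect was therefore more negative in differentiating cells, by -0.60 (SE 0.162), but that difference had an adjusted p of 0.248, and 0.0498% of all genes passed this test. The second probe did not show it, with ratios of 0.01 and 0.22 on the differentiating arrays and -0.22, 0.52, 0.56 and 0.16 on the proliferating ones. No member passed for the difference of the KO effects, for which 9 genes passed in all and 2178 had an unadjusted p under 0.05.

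Pou3f4, the Brn4 gene, gave signals near background. Its brighter probe (A_51_P354003, chromosome X, 106142798 to 106142857, build mm7) was well above background in 1 of 2 differentiating KO channels and in both WT ones, and in 2 of 4 proliferating channels of each genotype. Its log2 intensities were 6.56 and 6.68 in differentiating KO cells, against 6.55 and 6.62 in WT, and between 6.32 and 6.72 in proliferating KO cells, against 6.43 to 6.76 in WT. The mean log2 ratio was 0.03 ± 0.0261 in differentiating (SD, n = 2) and -0.06 ± 0.145 in proliferating cells (SD, n = 4). Withdrawal moved it by 0.10 in KO cells (SE 0.157, adjusted p = 0.687) and by 0.01 in WT cells (SE 0.157, adjusted p = 0.967). Signal this close to background leaves changes of Pou3f4 hard to see.

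The second Pou3f4 probe (A_51_P470176, chromosome X, 106145571 to 106145630, build mm7) was well above background on 1 array only, proliferating replicate 2, in both channels. It read 7.73 in KO and 7.77 in WT cells there, against 6.19 to 6.46 in the other proliferating KO channels and 6.11 to 6.42 in the other WT ones. The brighter probe did not stand apart on that array, with 6.54 in KO and 6.52 in WT cells. The 2 probes of Pou3f4 thus disagree on that array.

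The 4 genes did not all vary together. Over the 12 single channels of 6 arrays, which share arrays in pairs, Pearson's r was 0.802 between Pou3f2 and Pou3f4, 0.221 between Pou3f1 and Pou3f3, and between -0.277 and 0.0015 for the other pairs. These are descriptions over 12 channels and carry no p. Pou3f4 takes part in the highest of them with values that are mostly near background.

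The genes whose channel values were most like those of Pou3f1 were Pxdc1 (r = 0.93), Grin2c (r = 0.925), Ccdc184 (r = 0.908), Ttpa (r = 0.902) and Mcam (r = 0.889), taken as the 5 highest of 18049 genes. Grin2c encodes a subunit of the NMDA glutamate receptor, Ttpa the tocopherol transfer protein and Mcam a cell adhesion molecule. Like Pou3f1, all 5 were highest in the KO channel of proliferating replicate 3. Pxdc1 had log2 intensities of 11.76 in KO and 10.72 in WT cells there, against 10.49 in KO and 8.91 in WT cells on replicate 4. Its KO over WT ratio was not as steady as that of Pou3f1, at 0.37, 1.74, 1.04 and 1.58 on the 4 proliferating arrays. Mcam had 12.77 in KO and 9.33 in WT cells on replicate 3, so its WT channel did not follow the rise of Pou3f1 on that array. All of these genes were selected as the closest of many, so their likeness is no evidence of a relation.

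**Figure D4:**
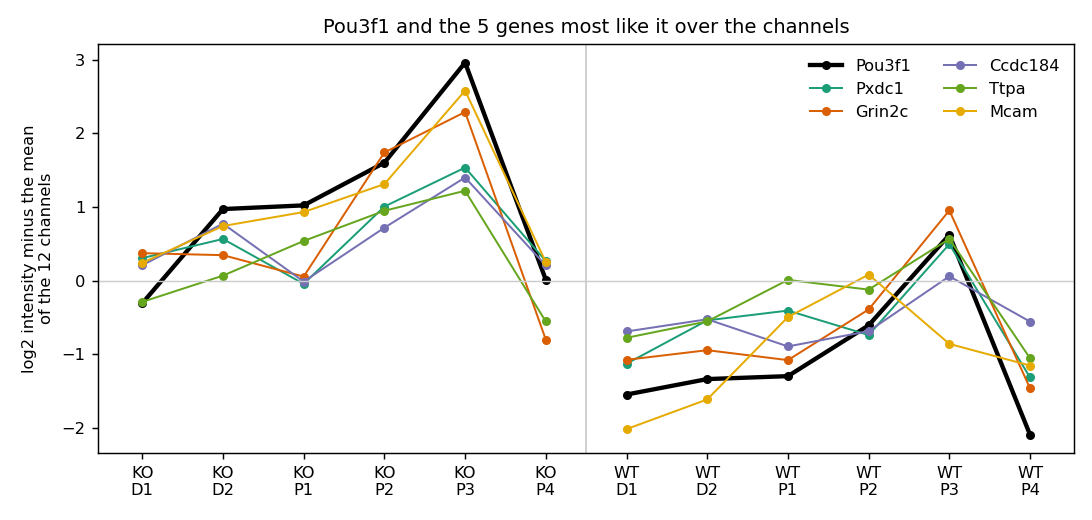
Log2 intensity minus the mean of the 12 channels (vertical axis) for Pou3f1 and the 5 genes with the highest Pearson's r to it, with KO channels left of WT channels and arrays named D1, D2 and P1 to P4 as differentiating and proliferating replicates. All 6 lines peak in KO at P3, and in WT all but Mcam also peak at P3.

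For Pou3f3 the 5 most alike genes were Sinhcaf (r = 0.967), Atp4a (r = 0.962), Acin1 (r = 0.961), Map2k6 (r = 0.96) and Nes (r = 0.956). All 5 passed as lower after withdrawal in both genotypes, and all 5 were chosen for following Pou3f3. Nes had 11.35 and 11.56 in differentiating KO cells, against 14.53, 14.62, 14.96 and 13.71 in proliferating KO cells. In WT cells Nes had 11.71 and 12.42 while differentiating, against 14.31, 14.43, 14.86 and 13.34 while proliferating. Its fall was -3.00 in KO cells (adjusted p = 0.00174) and -2.17 in WT cells (adjusted p = 0.00524). In 1 of the 4 proliferating KO channels the spot was saturated for Nes, so its level there and the fall in KO cells may be understated. The genes most like Pou3f2 and Pou3f4 were led by 1810005K13Rik (r = 0.952) and 6330500D04Rik (r = 0.894).

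Genes next to the members on the same chromosomes were looked at by the 3 nearest tested probes on each side, 24 in all. Of these, 1 of 24 passed as changed in KO over WT in differentiating cells, Gpr45 (336 kb from Pou3f3, log2 ratio -0.88, adjusted p = 0.0489), and 1 of 24 in proliferating cells, Il1rl2 (2330 kb from Pou3f3, log2 ratio 1.14, adjusted p = 0.0275). Over all tested genes 3.08% passed in differentiating and 0.952% in proliferating cells. With withdrawal 6 of the 24 passed in KO cells, where 15.2% of all genes did, and 8 of 24 in WT cells, where 14.9% did. Around Pou3f1, 3100002H09Rik, 48.9 kb away, had ratios above 0 on all 6 arrays, with a mean of 0.20 in differentiating (adjusted p = 0.542) and 0.61 in proliferating cells (adjusted p = 0.0636). Its WT channel was well above background on 1 of 2 differentiating and 1 of 4 proliferating arrays. Like Pou3f1, it was highest on proliferating replicate 3, with 8.59 in KO and 8.14 in WT cells, against 6.62 to 7.22 and 6.03 to 6.35 on the other proliferating arrays. On the other side Utp11, 19.7 kb away, had ratios of -0.06 and 0.10 in the 2 conditions (adjusted p = 0.837 and 0.495), while Fhl3 and Sf3a3 lay between -0.24 and -0.01. The rise of Pou3f1 was thus not shared by these nearest genes at a comparable size.

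Next to Pou3f3 lie 2 non-coding transcripts. One is 2610017I09Rik, a synonym of the long non-coding RNA gene Pantr1 in the RefSeq gene table, 51 kb away by probe position, and the other is 2900092D14Rik, 3.45 kb away. Both had negative KO over WT ratios on the differentiating arrays, -1.17 and -0.63 for 2610017I09Rik and -0.95 and -0.16 for 2900092D14Rik, with fitted means of -0.90 (adjusted p = 0.249) and -0.56 (adjusted p = 0.13). Neither passed. With withdrawal they moved by -0.40 and -0.41 in KO cells (adjusted p = 0.635 and 0.215) and by 0.37 and 0.12 in WT cells (adjusted p = 0.674 and 0.754), so neither of these 2 transcripts was called with withdrawal.

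The 5 lists of related genes set the members in context. Promyelinating and myelin genes of Schwann cells, the programme Pou3f1 is known for, had 3 of 17 members higher in KO than in WT differentiating cells (Sox10, Erbb3 and Mag) and 2 of 17 higher in proliferating cells (Sox10 and Dhh), with none lower, where 3.08% and 0.952% of all tested genes passed in either direction. The median log2 ratio of the list was 0.58 in differentiating and 0.33 in proliferating cells, against -0.0072 and -0.0062 over all tested genes. Sox10, a factor of oligodendrocytes and Schwann cells, was at 2.19 (adjusted p = 0.017) in differentiating and 2.46 (adjusted p = 0.0124) in proliferating cells. Mag, a myelin glycoprotein gene, was at 3.37 (adjusted p = 0.0342) in differentiating and 1.32 (adjusted p = 0.162) in proliferating cells. Erbb3, a neuregulin receptor gene, was at 1.80 (adjusted p = 0.0218) in differentiating and 0.75 (adjusted p = 0.107) in proliferating cells.

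Dhh, which encodes the Schwann cell signal desert hedgehog, shared part of the array pattern of Pou3f1. In proliferating KO cells it had 11.06, 12.14, 14.38 and 10.94 on replicates 1 to 4, against 8.03, 7.88, 9.6 and 8.45 in WT cells, and replicate 3 was the highest in both genotypes as for Pou3f1. Its mean log2 ratio was 3.64 ± 1.06 (SD, n = 4, adjusted p = 0.0276) there and 0.70 (adjusted p = 0.604) in differentiating cells. With withdrawal Dhh fell by 4.62 in KO cells (adjusted p = 0.0145), and Erbb3 and Mag rose in KO cells by 1.94 (adjusted p = 0.00876) and 3.66 (adjusted p = 0.0126). Dhh, Erbb3 and Mag were the only genes of the list called with withdrawal in KO cells, where 15.2% of all genes passed. No gene of the list passed with withdrawal in WT cells, where 14.9% of all genes passed.

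**Figure D5:**
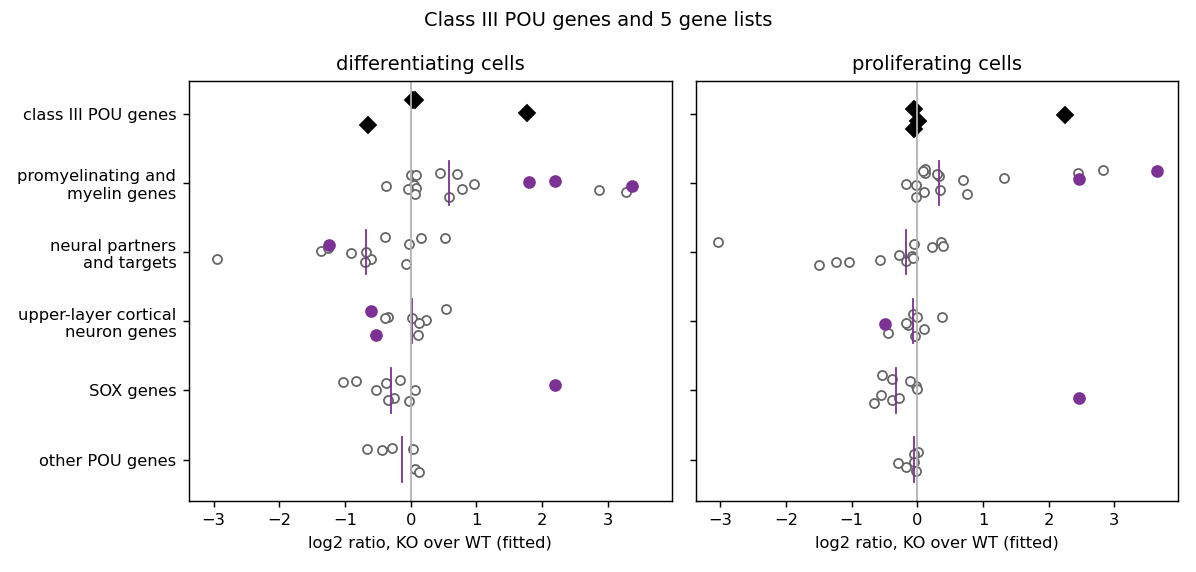
Fitted log2 ratio of KO over WT (horizontal axes) in differentiating and proliferating cells for the 4 class III POU genes (black diamonds) and the measured genes of 5 lists. Filled circles are list genes with an adjusted p under 0.05, open circles are the others and vertical strokes are list medians. In differentiating cells 3 of 17 promyelinating and myelin genes pass, all above 0, where 3.08% of all tested genes pass in either direction.

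Neural partners and targets of the family were 13 of 15 measured. Myt1l, the partner of Pou3f2 in neuronal reprogramming, was the 1 gene called in KO over WT, lower in differentiating KO cells at -1.25 (adjusted p = 0.0147). It had 6.91 and 6.12 in KO, against 8.02 and 7.51 in WT, and the KO channel at 6.12 was not well above background, so that the level there is only a bound. It was at least 2.95-fold higher after withdrawal in WT cells (adjusted p = 0.00395), since no proliferating WT channel was well above background. Nes and the Notch target Hes1 fell with withdrawal in both genotypes, Hes1 by 1.88 in KO cells (adjusted p = 0.0167) and by 1.41 in WT cells (adjusted p = 0.0448). No gene of this list passed between KO and WT proliferating cells, where 0.952% of all tested genes passed. In differentiating cells 3.08% of all tested genes passed. After withdrawal 15.2% of all genes passed in KO cells and 14.9% in WT cells. The list medians were -0.68 in differentiating and -0.17 in proliferating cells.

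Upper-layer cortical neuron genes were 9 of 10 measured. Inhba, an activin subunit gene, was lower in differentiating KO cells at -0.60 (adjusted p = 0.033). With withdrawal Inhba rose in both genotypes, at least 1.60-fold in KO cells (adjusted p = 0.0224) and at least 2.45-fold in WT cells (adjusted p = 0.00208). Cux2, a homeobox gene of upper layers, rose by 0.71 in KO cells (adjusted p = 0.0317) and had 0.29 in WT cells (adjusted p = 0.321). The list medians for KO over WT were 0.01 in differentiating and -0.06 in proliferating cells.

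Of the SOX genes, 10 of 11 measured, Sox10 alone passed between KO and WT cells, and Sox3 alone passed with withdrawal, which fell by 1.20 in KO cells (adjusted p = 0.00851) and by 1.38 in WT cells (adjusted p = 0.0045). The list medians for KO over WT were -0.30 in differentiating and -0.33 in proliferating cells. The other POU genes had 6 of 12 measured and none passed in any of the 5 comparisons, with medians of -0.13 in differentiating and -0.05 in proliferating cells. Over all tested genes 3.08% passed between KO and WT in differentiating and 0.952% in proliferating cells. After withdrawal 15.2% of all genes passed in KO cells and 14.9% in WT cells. With lists this small, nothing is read from the counts of SOX genes or other POU genes. Among all 10 POU genes tested, the family's 4 included, Pou3f1 and Pou3f3 were the ones called in any comparison. Pou3f1 was called only in KO over WT, the ratio that chose the family. Pou3f3 was called only with withdrawal, where 15.2% of all genes passed in KO cells and 14.9% in WT cells. Nothing is read from this count.

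Markers of other cell types moved with genotype and condition, and their part in the values of the members was not tested. Between KO and WT, 3.08% of all tested genes passed in differentiating and 0.952% in proliferating cells, in either direction. Of 15 oligodendroglial markers, 6 were higher in differentiating and 4 in proliferating KO cells (Sox10, Gpr17, Nkx2-2 and Bcas1 while proliferating). Their summed linear intensity per array was 213000 to 265000 in differentiating KO cells, against 74100 to 94300 in WT, and 74800 to 174000 in proliferating KO cells, against 53800 to 79100 in WT. On proliferating replicates 1 to 4 the sum in KO cells over that in WT cells was 1.26, 1.9, 0.954 and 3.23 for oligodendroglial markers. For Schwann and neural crest markers it was 1.53, 1.05, 1.75 and 1.86, and for astroglial markers 1.43, 1.46, 3.03 and 1.74. The log2 ratio of KO over WT for Pou3f1 on these arrays was 2.32, 2.21, 2.34 and 2.11.

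The Schwann and neural crest markers had a median log2 ratio of KO over WT of -0.03 in differentiating cells, with 4 of 9 above 0, and -0.02 in proliferating cells, with 3 of 9 above 0. Their sums, which the brighter members set, were nonetheless higher in KO cells on every array. They came to 3150 to 4430 in differentiating KO cells, against 2480 to 2690 in WT, and to 3970 to 5610 in proliferating KO cells, against 2600 to 3860 in WT. Of the 9 markers, Erbb3 was the 1 called higher in differentiating KO cells, with none called in proliferating cells. Astroglial markers summed to 48500 to 81600 in differentiating KO cells, against 20200 to 23600 in WT, and to 32400 to 55000 in proliferating KO cells, against 10700 to 31700 in WT, with Aqp4 and Gjb6 of 6 called higher in differentiating cells. Neuronal markers summed to 8180 to 9440 in differentiating KO cells, against 20400 to 22900 in WT, and 5 of 7 were lower (Syt1, Tubb3, Map2, Snap25 and Rbfox3). In proliferating cells these sums were 5770 to 8670 in KO and 7630 to 9180 in WT, with none called.

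Neural stem and radial glia markers summed to 104000 to 116000 in differentiating KO cells, against 127000 to 153000 in WT, and to 125000 to 167000 in proliferating KO cells, against 137000 to 174000 in WT, with Prom1 of 6 higher in differentiating KO cells. No microglial marker of 5 was well above background in any channel. Endothelial and mural markers had 3 of 5 measured and none called between KO and WT, and ependymal markers had 2 of 4 measured, of which Foxj1 was higher in differentiating KO cells.

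Markers of these cell types also changed with withdrawal, the comparison in which Pou3f3 fell, and their part in that fall was not tested. Over all genes 15.2% passed in KO cells and 14.9% in WT cells in either direction, with 6.09% and 5.89% passing downwards. In KO cells 4 of 6 astroglial markers rose (Gjb6, Aqp4, Slc1a2 and Gfap) and in WT cells 2 of 6, Gjb6 and Slc1a2. Of 7 neuronal markers 2 rose in KO cells, Dcx and Rbfox3, and 6 rose in WT cells. Of 15 oligodendroglial markers 5 rose in KO cells (Mobp, Cldn11, Cnp, Mag and Mog) and 1 in WT cells, Gpr17, while Olig2 fell in both. Of 6 neural stem and radial glia markers Nes fell in KO cells, and Nes and Vim fell in WT cells. Pdgfrb, a receptor gene of mural cells, rose by 3.51 in KO cells (adjusted p = 0.000918) and by 4.12 in WT cells (adjusted p = 0.000514). Of the Schwann and neural crest markers Erbb3 rose and Ets1 fell in KO cells, with none called in WT cells, and no ependymal marker was called.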

How the data were processed

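The deposited files are scanner tables from Agilent Feature Extraction 9.5.1.1 for array design 014868, per the file headers, with probe positions on build mm7. They hold the intensity of each spot in both dyes, as mean signal and local median background, per the file headers. A log10 ratio of red (Cy5) to green (Cy3) stands beside it, per the file headers. In the value table deposited by the authors these log10 ratios appear turned to KO over WT, with a median of 0 in each column; the sources used here do not describe further centring.

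For background correction, normexp with an offset of 50 was applied to the mean signals (limma 3.58.1, R 4.3.3), and loess normalization within arrays followed. The packages statmod 1.5.0 and data.table, version 1.17.8, were also used. The 1639 control spots per array and 859 outlier-marked spots were left out and repeat spots averaged. Of 41174 probes, 22951 were named by accession and 18223 by the file. Each gene was represented by its brightest probe. The log2 ratios, KO over WT, of the 6 arrays entered 1 limma fit (1 coefficient per condition and a dye term; 3 residual and 2.56 prior degrees of freedom). Changes with withdrawal were estimated per channel in limma, after Aquantile normalization (intraspot correlation 0.764, 18050 genes). Adjusted p-values are 2-sided Benjamini-Hochberg values over all genes. A fold given as a bound (at least) has a dim group in which no channel measured the probe; there each array contributed the lowest signal of any probe well above background, or the dim signal itself if that was higher. The fits were tested on simulated data.

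The members, the 5 pathway lists, the 8 marker lists and the named genes were chosen with earlier results of these data known. The named genes are Dnmt3a, the members, up to 4 genes of smallest p that passed per list and comparison, 8 defining markers, the 5 genes most like each member and the 3 nearest tested genes on each side. Levels of different probes were not compared. Replicate numbers are shared by 2 arrays of each condition; same-numbered arrays had deviations that correlated at -0.369 and -0.288 across genes, and the numbers were not taken to pair the arrays. Mog was named outside this rule, after its values were seen. Some results on single genes of the lists are not reported here.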

Additional observations from a re-analysis of the deposited data

Results flagged for a closer look

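Values were looked at again where 1 of 4 proliferating arrays lay far from the other 3, or where the KO effect differed between the conditions by the test. About 1 in 20 such groups would stand out by chance, and 6 of 77 examined did. Among the members it was the second Pou3f4 probe, whose log2 intensity in KO cells was 7.733 on replicate 2.

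The others were log2 ratios of KO over WT for genes named beside the members. Sox10 was at 1.726 on replicate 2, below the other arrays, and Mcam at 3.442 on replicate 3, Erbb3 at 1.369 on replicate 4 and Aqp4 at 0.742 on replicate 2 were above them. Snap25 was at -0.7019 on replicate 1, below the others. Aqp4 was also the named gene whose KO effect differed between conditions, by 2.46 on the log2 scale, with mean log2 ratios of 2.91 in differentiating and 0.45 in proliferating cells (adjusted p = 0.0395 for the difference).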

How the results depend on the processing

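Under 18 alternatives the KO over WT ratio of Pou3f1 lay between 1.33 and 2.23 in differentiating and between 2.16 and 2.35 in proliferating cells. Several of these could not move it, since Pou3f1 has a single probe and omitting an array of the other condition leaves the mean unchanged. The ratio chose the family, so these ranges are a description only. For Pou3f3 in differentiating cells the ratio was -0.27 with the mean of probes, 0.11 with the other probe, which reverses it, and -0.82 to -0.48 leaving out single arrays; in proliferating cells the other probe gave 0.26. Its withdrawal change was -0.75 with the other probe in KO cells and -1.84 to -1.55 leaving out single arrays, and in WT cells -0.84 with the mean of probes (adjusted p = 0.0707), -1.24 without proliferating replicates 3 and 4, whose channels differ in sex-linked genes (adjusted p = 0.111), -0.61 with the other probe and -1.18 to -1.01 leaving out single arrays. For Pou3f4 in differentiating cells the ratio was 0.10 with the mean of probes, 0.16 with the other probe and -0.0823 to 0.15 leaving out single arrays, the sign turning without differentiating replicate 2 (-0.0823); in proliferating cells it was -0.32 with Agilent's processed signals and with the authors' value table. The causes of these shifts were not tested.

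Genes called in KO over WT differentiating cells numbered 557, against 2413 with array weights, 1586 with the condition fitted alone, 285 with median centring, 970 without replicates 3 and 4, and 0 to 534 leaving out single arrays. In proliferating cells they numbered 172, against 278 with processed signals, 270 with the authors' table, 0 with the condition alone, 101 with no filter, and 0 to 171 leaving out single arrays. For the difference of KO effects 9 became 72, 216, 81, 4, 4, 0, 24, 0 and 0 with processed signals, array weights, the authors' table, the filter in both channels, the mean of probes, median centring, no dye term, no filter and without replicates 3 and 4, and 0 leaving out any single array. With the replicate block this count was 19, and that fit changed no call of a member. Withdrawal calls numbered 2750 in KO and 2693 in WT cells, against 1198 and 985 without replicates 3 and 4, and 230 to 4724 and 200 to 3824 leaving out single arrays. The slide could not be fitted as a block because it coincides with the condition, and no replicate block could be fitted beside the array in the separate-channel fit. Signal over background limits Pou3f4 most.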
